A study of Homo sapiens with 8 samples.

Results

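Genes whose promoters are commonly methylated in colon cancer were followed on expression arrays of RKO cells, an established human colon carcinoma line, to see which of them were expressed, which were silent and which were raised by a DNA demethylating drug. The 46 members were taken as a fixed list of gene symbols, with every probe that the platform annotation assigns to them, DFNA5 being the older name of GSDME and SEPT9 that of SEPTIN9. Of these, 43 had at least 1 probe, 64 probes in all, among 18664 named genes and 48801 probes. CRABP1, CDH13 and CDH4 had no probe in that annotation and were not analysed here. The study asked whether reactivation by 5-Aza-CdR (5-aza-2-deoxycytidine) depends on SRCAP, and its 8 arrays hold 4 groups of 2: SRCAP siRNA with 5-Aza-CdR, SRCAP siRNA with PBS, NC siRNA with 5-Aza-CdR and NC siRNA with PBS, where NC is a non-target siRNA. All cells received 100 nM siRNA for 24 h and then 1 µM of the drug or the PBS vehicle. The labels give 72 h for this second step whereas the methods describe a shorter exposure with RNA taken later, so that time is not settled. All 8 arrays come from this 1 line. Nothing in the labels states that the paired arrays of a group were grown separately, and the p-values then cover only their spread, part of which may be technical.

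Cytosine methylation of a CpG-rich promoter is a stable form of gene silencing. 5-Aza-CdR is built into DNA during replication and traps the DNA methyltransferases, so that daughter strands lose methylation, and SRCAP is a chromatin remodelling ATPase that puts the histone variant H2A.Z into nucleosomes. The listed genes are known in colon tumours as WNT antagonists, as markers of stool and blood tests, as markers of the CpG island methylator phenotype (CIMP) and as repair, adhesion and signalling genes. DNA methylation itself is not measured by these arrays, so "silent" below means only that a probe was not detected.

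The start sites of members that were raised and of members that stayed undetected are shown because CG sites are where DNA is methylated. RefSeq promoter windows, from 250 bases before to 50 bases after a start site (GRCh38.p14), were found for 34 of the 46 members, and the 250 bases before the start are printed 5′ to 3′ with every CG in capitals. The 3 silent members that 5-Aza-CdR raised are shown first, all on the minus strand: HLTF at chr3:149086534-149086783, GSDME at chr7:24757465-24757714 and TFPI2 at chr7:93890754-93891003. The GSDME window is at the only start in the table for this gene, which lies inside its longest annotated span.
HLTF: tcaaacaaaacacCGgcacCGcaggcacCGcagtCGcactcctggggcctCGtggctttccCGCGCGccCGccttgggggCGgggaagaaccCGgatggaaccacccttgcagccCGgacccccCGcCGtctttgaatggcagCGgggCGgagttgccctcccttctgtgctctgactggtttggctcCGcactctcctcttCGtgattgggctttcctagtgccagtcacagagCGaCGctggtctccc
GSDME: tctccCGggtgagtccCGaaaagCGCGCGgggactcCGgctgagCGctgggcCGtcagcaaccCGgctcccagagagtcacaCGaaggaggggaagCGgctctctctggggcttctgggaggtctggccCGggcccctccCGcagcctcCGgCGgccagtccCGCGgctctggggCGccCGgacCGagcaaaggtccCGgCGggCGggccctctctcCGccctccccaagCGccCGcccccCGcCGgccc
TFPI2: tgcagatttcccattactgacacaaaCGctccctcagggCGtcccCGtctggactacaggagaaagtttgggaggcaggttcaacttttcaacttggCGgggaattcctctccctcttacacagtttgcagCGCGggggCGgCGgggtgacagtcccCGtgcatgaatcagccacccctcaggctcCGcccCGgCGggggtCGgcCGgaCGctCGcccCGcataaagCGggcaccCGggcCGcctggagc

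These stretches hold 20 CG sites for HLTF, 28 for GSDME and 20 for TFPI2. A pair of WNT antagonists that were detected on no array, also on the minus strand, is set beside them: SFRP2 at chr4:153789084-153789333 and SFRP5 at chr10:97772000-97772249.
SFRP2: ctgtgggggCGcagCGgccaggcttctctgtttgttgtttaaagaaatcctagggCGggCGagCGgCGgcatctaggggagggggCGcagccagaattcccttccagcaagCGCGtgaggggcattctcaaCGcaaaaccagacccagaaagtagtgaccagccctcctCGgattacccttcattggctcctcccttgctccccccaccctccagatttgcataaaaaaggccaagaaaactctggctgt
SFRP5: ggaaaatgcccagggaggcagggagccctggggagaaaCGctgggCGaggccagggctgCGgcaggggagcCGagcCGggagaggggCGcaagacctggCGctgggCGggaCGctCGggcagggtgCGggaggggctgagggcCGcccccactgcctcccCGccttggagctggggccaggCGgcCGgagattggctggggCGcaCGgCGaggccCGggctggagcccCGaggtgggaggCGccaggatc

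SFRP2 has 11 CG sites in this stretch and SFRP5 has 21. Over the whole 300-base windows, taking for each gene the window with the most CG, the 34 members had a median of 28.5 CG (7 to 49), against 16 for 27305 genes with a window. A CG was present in 100.0% of member windows and in 96.2% of all windows, and CCGG, which reads the same on both strands and overlaps CG, in 94.1% of member windows and 64.5% of all. The count was 26 to 35 for the 3 silent members that were raised, and the 1 raised expressed member with a window, NDRG4, had 49, the most of all members, so that the 4 raised members had a median of 31.0. For NDRG4 this was the highest of 4 windows, whereas the 3 silent members that were raised had 1 window each. Which NDRG4 window belongs to the detected transcript was not tested. The count was 11 to 39 (median 29.0) for 17 members that were detected on no array. Among expressed members that were not raised, 6 had a window and ranged between 12 and 45 (median 34.5), and the 5 borderline members with a window ranged between 7 and 33 (median 23.0). The ranges of the raised and the other members overlapped.

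**Figure D1:**
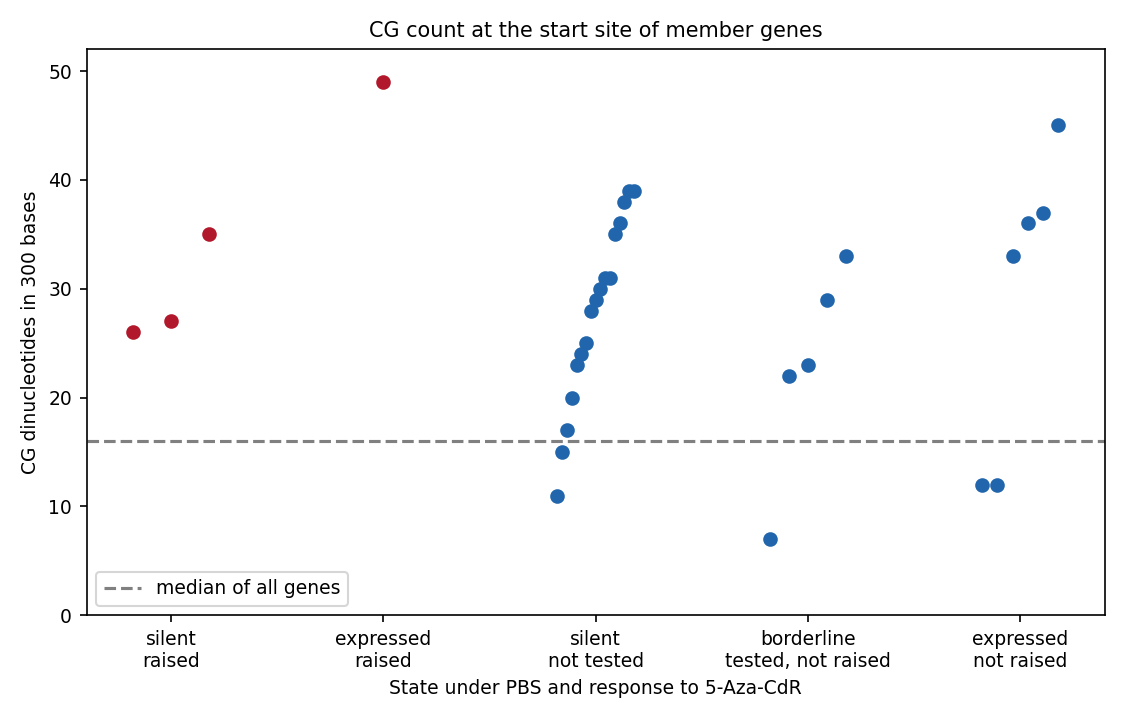
CG dinucleotides in the 300-base window at the start site of each measured member with a window (points, vertical axis), by state under PBS and response to 5-Aza-CdR (horizontal axis), with the median of all genes, 16, as a dashed line. CDH4 and CRABP1, which had no probe, are not shown. The 3 silent members that were raised (26 to 35) lie within the range of the 17 silent members that were not tested (11 to 39).

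Each array detected 17838 to 19767 probes, or 36.6% to 40.5% (detection p under 0.01), and both arrays of a group correlated at r = 0.983 to 0.993. SRCAP, the targeted gene, read 6.46 to 6.73 on the 4 SRCAP siRNA arrays and 6.83 to 7.19 on the 4 NC siRNA arrays on the normalized log2 scale used throughout (ILMN_1750641). The groups did not overlap, but the average difference of -0.47 ± 0.16 was not called (limma, adjusted p = 0.172). Of 13 colon epithelial markers, EPCAM, CDX2, KRT8 and KRT18 were expressed and 7, among them CDH1 and VIL1, were detected on no array. Outside the epithelium, 1 of 8 fibroblast markers (PDGFRA), 2 of 6 endothelial markers (PECAM1 and ERG) and 1 of 5 leukocyte markers (CD68) were expressed, while COL1A1, VWF and PTPRC were detected on no array. Among them CD14, a monocyte marker, rose with 5-Aza-CdR in NC siRNA cells by 1 probe (ILMN_2396444, 1.61 ± 0.29, adjusted p = 0.0130). A second CD14 probe (ILMN_1740015) was detected on no array. Whether other cells had a part in the results below was not tested.

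Most of the 43 measured members were silent. A gene was counted as expressed when a probe of it was detected on all 4 PBS arrays, as silent when none of its probes was detected on any of them, and as borderline otherwise. By this measure 9 members (20.9%) were expressed, 26 (60.5%) were silent and 8 (18.6%) were borderline, against 53.9%, 38.5% and 7.6% of the 18664 named genes. By the representative probe of each gene, its tested probe with the highest mean, 5-Aza-CdR raised 5 members, HLTF, GSDME and TFPI2 among the silent ones and DKK3 and NDRG4 among the expressed ones. None of the 8 borderline members was raised by that probe, although a second probe of 1 of them, RASSF2, was, and 23 of the 26 silent members were not raised.

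**Figure D2:**
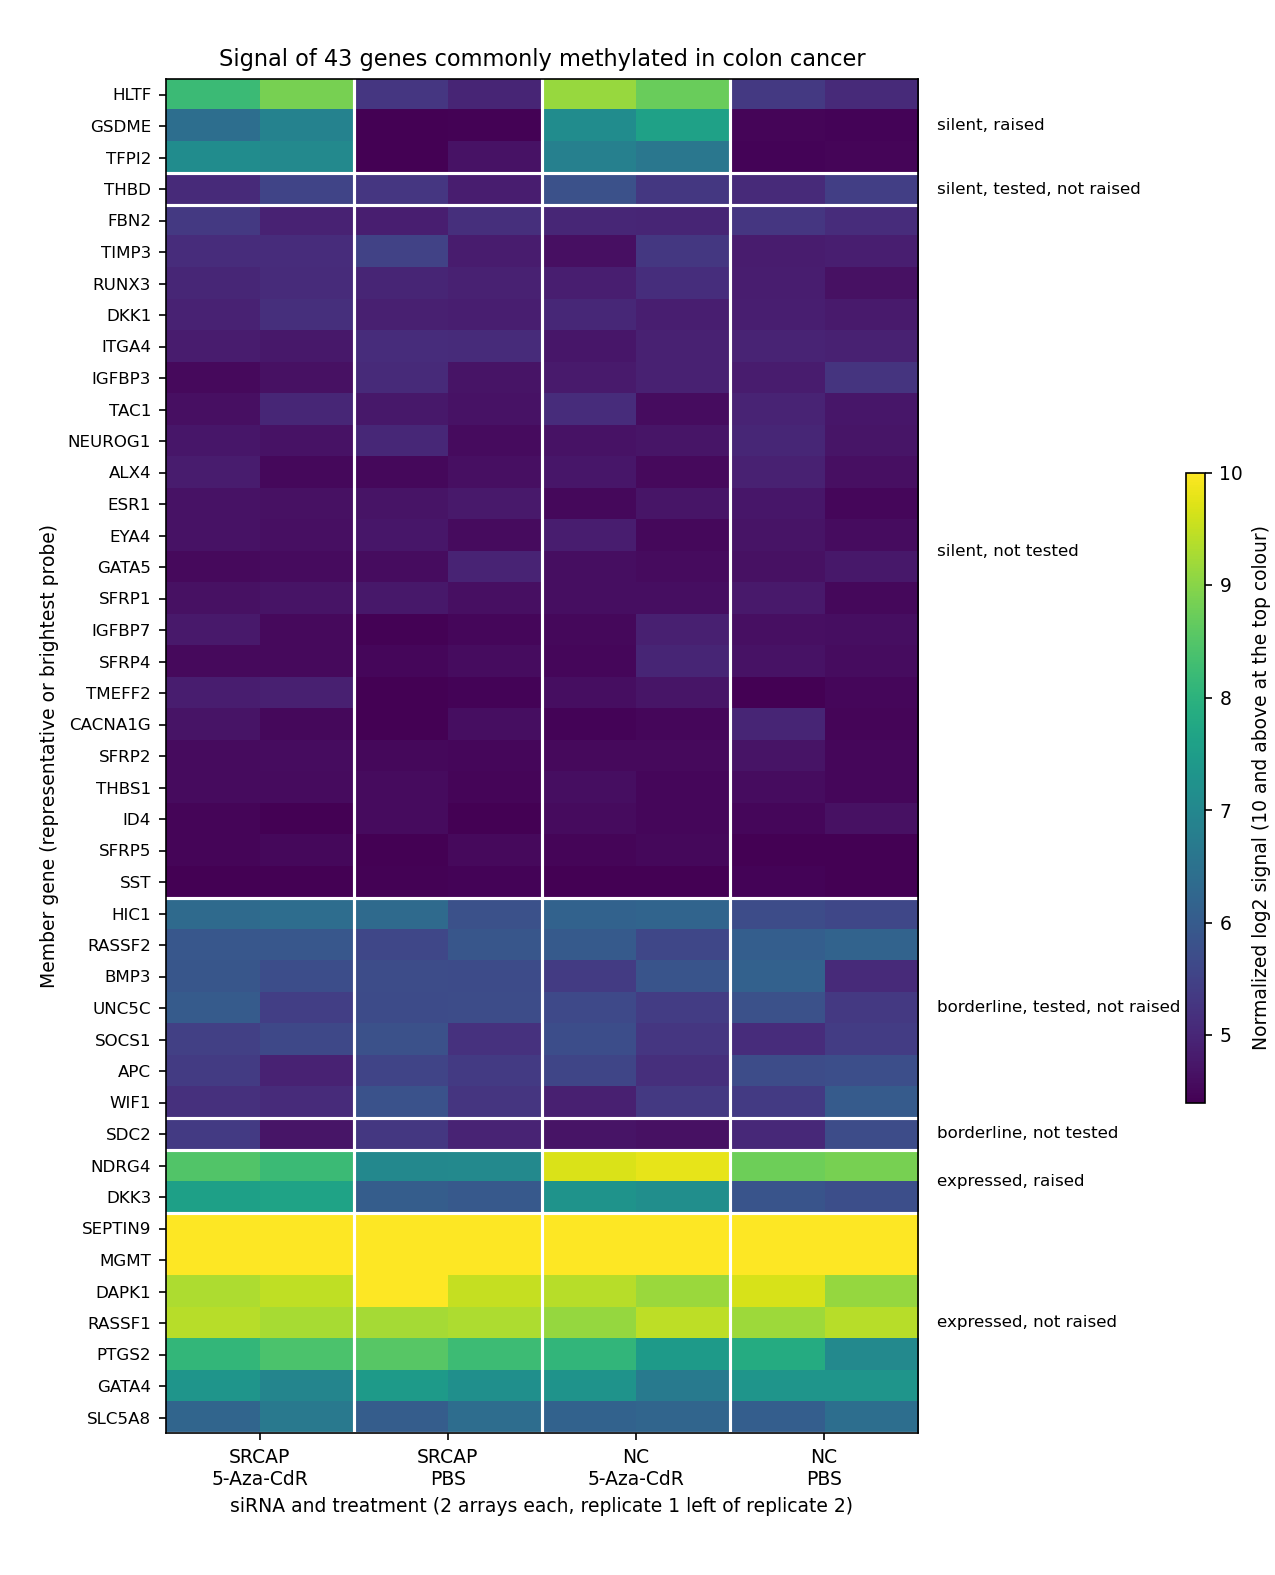
Normalized log2 signal (colour) of the representative or, where none was tested, the brightest probe of each of the 43 measured members (down the page, by state under PBS and response) on the 8 arrays (across). The 22 silent members that were not tested stay dark on every array, between 4.34 and 5.51 over all their 30 probes, while HLTF, GSDME and TFPI2 are bright only on the 5-Aza-CdR arrays.

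A probe entered the test when it was detected on at least 2 of the 8 arrays, whatever their group, which left 26 probes of 20 members. A silent member could therefore enter only through the 5-Aza-CdR arrays, and the share raised among tested silent members is not used. A change was called at an adjusted p under 0.05 over all 20328 tested probes. In SRCAP siRNA cells 5 of the 20 tested members were higher after 5-Aza-CdR and 0 were lower, where 2.27% of 11670 tested genes were higher and 0.0257% were lower. In NC siRNA cells 5 were higher and 0 were lower, where 3.11% of genes were higher and 0.0343% were lower. On average over both siRNAs 5 were higher and 0 lower, where the shares of genes were 4.01% and 0.283%. These counts are given for scale only, because HLTF, GSDME and TFPI2 are among the 5 and entered through the drug arrays. Of the 20 tested members 9 were expressed under PBS, against 10067 of the 11670 tested genes, so the shares are not like for like. The median change of the 20 members was 0.09 in SRCAP siRNA cells and 0.01 in NC siRNA cells, against -0.01 and -0.04 over all tested genes. Counted over every gene on the array, tested or not, 3 of 26 silent members (11.5%) were raised in at least 1 siRNA, against 3.59% of silent genes, as were 2 of 9 expressed members (22.2%), against 0.824% of expressed genes, and 0 of 8 borderline members, against 3.1% of borderline genes.

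HLTF, a DNA translocase of the SWI/SNF family that acts in the tolerance of DNA damage, was detected on the 5-Aza-CdR arrays only. Its representative probe (ILMN_1673820) read 8.21 and 8.85 in SRCAP siRNA cells with 5-Aza-CdR, against 5.28 and 4.99 in SRCAP siRNA cells with PBS. In NC siRNA cells it read 9.14 and 8.71 with 5-Aza-CdR, against 5.34 and 5.06 with PBS. All 4 drug arrays lay far above all 4 PBS arrays, where the probe was not detected. The change was 3.39 ± 0.28 in SRCAP siRNA cells (adjusted p = 6.76e-05, at least 7.13-fold) and 3.72 ± 0.28 in NC siRNA cells (adjusted p = 2.37e-05, at least 9.69-fold). Here and below ± after a change is the SE from limma. "At least" sets the mean of the brighter group against the higher, per dim array, of the lowest detected signal on it (5.44 to 5.70 over the 8 arrays) and the reading of the probe itself, because a dim group detected on no array has only an upper bound.

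A second HLTF probe (ILMN_1798588), annotated to the same transcript, was dimmer. It read 6.06 and 6.47 in SRCAP siRNA cells with the drug, against 4.56 and 4.72 with PBS, and 6.90 and 5.33 in NC siRNA cells with the drug, against 4.81 and 4.53 with PBS. It was detected on 3 of the 4 drug arrays and on no PBS array. Its change of 1.62 ± 0.42 in SRCAP siRNA cells (adjusted p = 0.136, at least 1.48-fold) and that of 1.45 ± 0.42 in NC siRNA cells (adjusted p = 0.182, at least 1.38-fold) were not called, and only the average over both siRNAs was (adjusted p = 0.0165). That call was lost with an offset of 50, without background correction, without a filter and in the table of the authors (adjusted p between 0.07 and 0.188), and without any 1 of the 4 SRCAP siRNA arrays (adjusted p between 0.0609 and 0.115).

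GSDME, which encodes the pore-forming protein gasdermin E, was silent on every PBS array. Its probe (ILMN_1670145) read 6.43 and 6.88 in SRCAP siRNA cells with 5-Aza-CdR, against 4.36 and 4.43 with PBS. It read 7.13 and 7.61 in NC siRNA cells with 5-Aza-CdR, against 4.48 and 4.45 with PBS. Drug and PBS arrays did not overlap, and the SRCAP siRNA drug arrays lay below the NC siRNA drug arrays. The drug effect was 2.26 ± 0.25 in SRCAP siRNA cells (adjusted p = 0.000531, at least 1.94-fold) and 2.91 ± 0.25 in NC siRNA cells (adjusted p = 5.98e-05, at least 3.30-fold). The difference between these effects (SRCAP minus NC siRNA), the interaction, in which the PBS readings are below detection, was -0.65 ± 0.35 with a 95% interval of -1.43 to 0.13 and was not called (adjusted p = 0.999). In the normalized table of the authors, where low signals are compressed, the effect in SRCAP siRNA cells was 0.65 and was not called (adjusted p = 0.0674).

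TFPI2, a secreted serine protease inhibitor of the matrix and a stool DNA marker, was silent under PBS and rose with the drug in both siRNAs. After the drug it read slightly higher with SRCAP than with NC siRNA, which was not called (0.35 ± 0.22, adjusted p = 0.489). Its probe (ILMN_2068104) read 7.13 and 7.03 in SRCAP siRNA cells with the drug, against 4.39 and 4.67 with PBS, and 6.85 and 6.61 in NC siRNA cells with the drug, against 4.45 and 4.47 with PBS. The probe was detected on all 4 drug arrays and on no PBS array. The drug effect was 2.55 ± 0.22 in SRCAP siRNA cells (adjusted p = 8.11e-05, at least 2.61-fold) and 2.27 ± 0.22 in NC siRNA cells (adjusted p = 0.000139, at least 2.12-fold). Their difference of 0.28 ± 0.31 (-0.40 to 0.97) was within its error.

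DKK3, a secreted member of the Dickkopf family of WNT regulators, was already expressed under PBS and rose further. Under PBS it was counted as expressed by 1 of its 4 probes, at readings close to the detection limit of 5.44 to 5.70. Its brightest probe (ILMN_2398159) read 7.58 and 7.65 in SRCAP siRNA cells with 5-Aza-CdR, against 6.06 and 5.96 with PBS. It read 7.28 and 7.17 in NC siRNA cells with 5-Aza-CdR, against 5.86 and 5.75 with PBS. The drug arrays stood above the PBS arrays with no overlap, and the change was 1.61 ± 0.20 in SRCAP siRNA cells (adjusted p = 0.00154) and 1.42 ± 0.20 in NC siRNA cells (adjusted p = 0.00269). A second probe (ILMN_1815673), detected on 1 of the 4 PBS arrays, was higher by 1.94 ± 0.24 in SRCAP siRNA cells (adjusted p = 0.00131) and by 1.52 ± 0.24 in NC siRNA cells (adjusted p = 0.00536), where it was detected on neither PBS array and the change was at least 2.05-fold (not called in NC siRNA cells without background correction, adjusted p = 0.0919, or in the table of the authors, adjusted p = 0.149), and 2 further DKK3 probes were detected on no array.

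NDRG4, an N-myc downstream-regulated family member and a stool DNA marker, was expressed on all 8 arrays by 1 of its 4 probes (ILMN_2305225), and the other 3, annotated to a different transcript, were detected on none. It read 8.48 and 8.22 in SRCAP siRNA cells with the drug, against 7.01 and 7.04 with PBS. It read 9.69 and 9.79 in NC siRNA cells with the drug, against 8.76 and 8.85 with PBS. The drug raised it in both siRNAs, by 1.33 ± 0.21 in SRCAP siRNA cells (adjusted p = 0.00713) and by 0.93 ± 0.21 in NC siRNA cells (adjusted p = 0.0486). The SRCAP siRNA call was lost without any 1 of the 4 SRCAP siRNA arrays (1.19 to 1.46, adjusted p between 0.0512 and 0.134), and the NC siRNA call without any 1 of the 8 arrays (0.88 to 0.98, adjusted p between 0.0871 and 0.324).

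**Figure D3:**
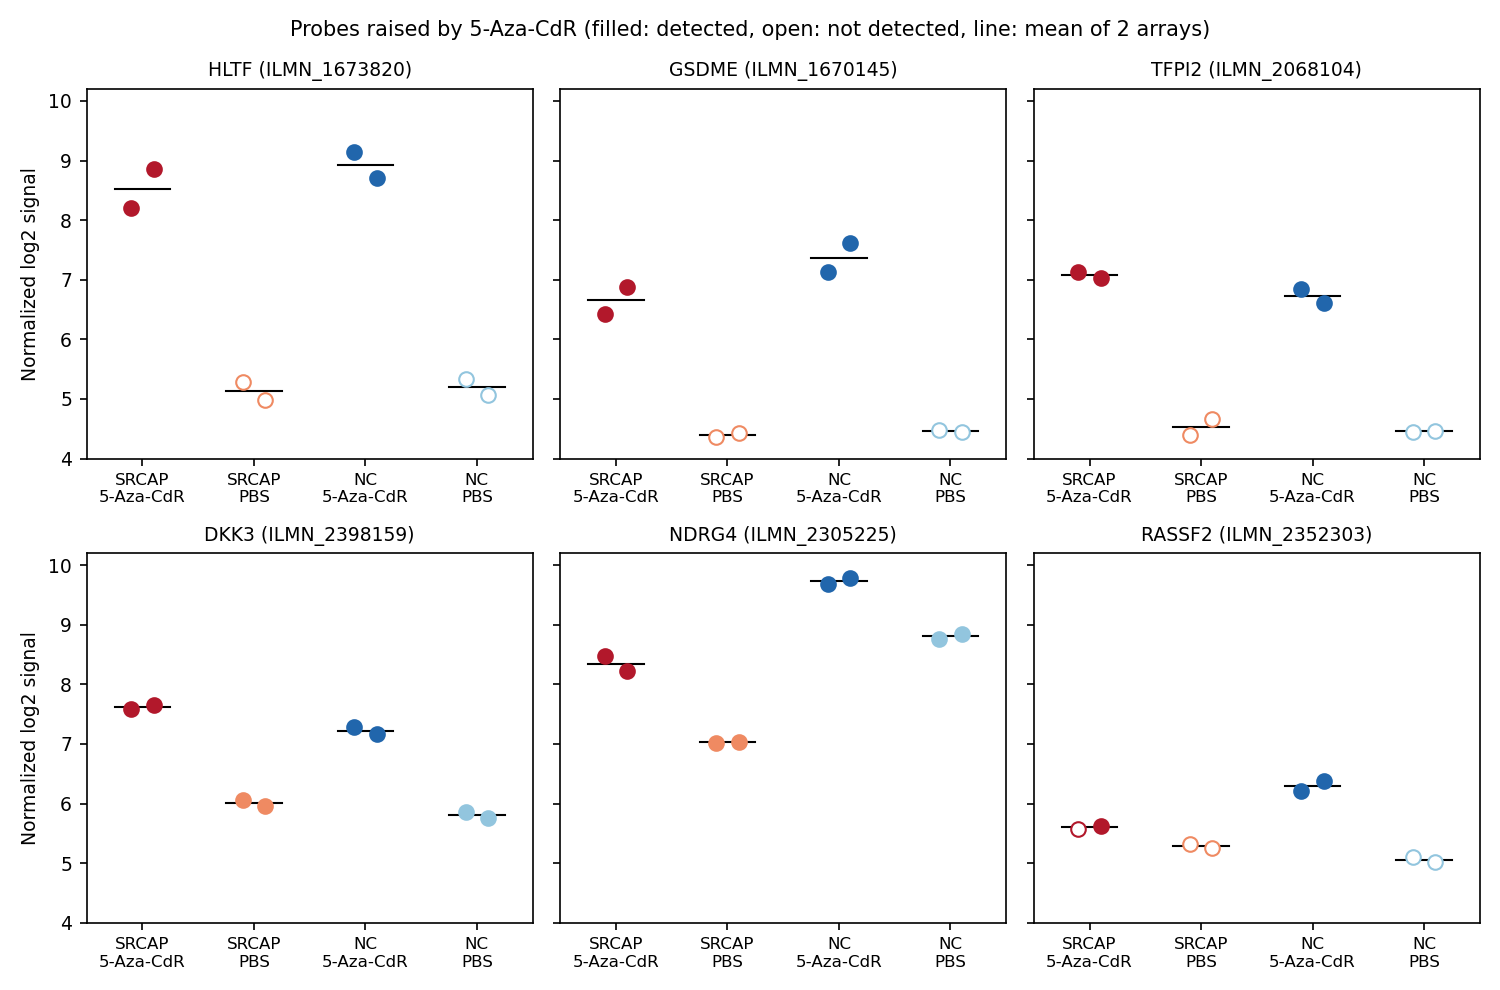
Normalized log2 signal (vertical axis) of the representative probe of the 5 members that 5-Aza-CdR raised and of the second RASSF2 probe on each array (points, filled where detected) in the 4 groups (horizontal axis), with the mean of 2 arrays as a line. HLTF, GSDME and TFPI2 go with the drug in both siRNAs, whereas NDRG4 is also lower on the SRCAP siRNA arrays (7.01 to 8.48) than on the NC siRNA arrays (8.76 to 9.79).

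Among the repair, chromatin and tumour suppressor genes, HLTF and GSDME were thus the 2 of 7 members that rose by their representative probe, and RASSF2 had a call by its second probe alone. MGMT, the methyltransferase that repairs alkylated guanine, was strongly expressed, at 10.67 and 10.79 in SRCAP siRNA cells with the drug, 10.89 and 11.77 with PBS, 11.42 and 11.90 in NC siRNA cells with the drug and 11.35 and 12.47 with PBS. Its drug effect of -0.25 ± 0.40 in NC siRNA cells (adjusted p = 0.990) was small against the gap between the NC siRNA arrays with PBS. RASSF1, a Ras association domain gene with several promoters, read 9.40 and 9.26 in SRCAP siRNA cells with the drug, 9.24 and 9.30 with PBS, 9.12 and 9.45 in NC siRNA cells with the drug and 9.18 and 9.40 with PBS with its brightest probe (ILMN_1734205). Another 2 RASSF1 probes, ILMN_2393573 (8.53 to 8.83) and ILMN_1683239 (7.85 to 8.32), were also detected on every array, with drug effects of 0.11 ± 0.21 and -0.04 ± 0.24 in NC siRNA cells, and ILMN_1808066 was detected on none. DAPK1, a death-associated kinase, read 9.31 and 9.47 in SRCAP siRNA cells with the drug, 9.98 and 9.50 with PBS, 9.40 and 9.15 in NC siRNA cells with the drug and 9.67 and 9.11 with PBS, and the drug arrays overlapped the PBS arrays in NC siRNA cells and lay just below them in SRCAP siRNA cells (-0.34 ± 0.27, adjusted p = 0.903). HIC1, a transcriptional repressor, was borderline and changed by 0.55 ± 0.24 in NC siRNA cells (adjusted p = 0.588).

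RASSF2, a relative of RASSF1, gave different answers by probe. The representative probe (ILMN_1812139) read 5.60 to 6.18 on the 8 arrays and changed by -0.34 ± 0.23 in NC siRNA cells (adjusted p = 0.868). A dimmer probe (ILMN_2352303), annotated to a different transcript, read 5.57 and 5.63 in SRCAP siRNA cells with the drug, against 5.32 and 5.26 with PBS, and 6.21 and 6.38 in NC siRNA cells with the drug, against 5.10 and 5.02 with PBS. It was undetected on all PBS arrays. Its change was 0.31 ± 0.20 in SRCAP siRNA cells (adjusted p = 0.855), and it rose in NC siRNA cells (1.23 ± 0.20, adjusted p = 0.00702, at least 1.57-fold) and on average over both siRNAs (0.77 ± 0.14, adjusted p = 0.0128). The difference of -0.92 ± 0.29 had an unadjusted p of 0.00964 in limma and an adjusted p of 0.999. The NC siRNA call of this probe was lost with an offset of 50 (adjusted p = 0.0572), with no background correction (0.162), in the table of the authors (0.231) and without replicate 2 of NC siRNA with 5-Aza-CdR (0.0718). The average call was lost in those 4 cases too (adjusted p between 0.0541 and 0.224), as well as without SRCAP siRNA with PBS replicate 2 (0.0575) and without either SRCAP siRNA array with 5-Aza-CdR (0.0693 and 0.0852).

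Of the 8 WNT antagonists and APC, only DKK3 rose. SFRP1, SFRP2, SFRP4 and SFRP5, which bind and sequester WNT ligands, and DKK1, which blocks the LRP co-receptors, were detected on no array. WIF1, another secreted WNT binder, read 5.18 and 5.10 in SRCAP siRNA cells with the drug, 5.82 and 5.26 with PBS, 4.90 and 5.32 in NC siRNA cells with the drug and 5.35 and 6.01 with PBS. It was detected on 2 arrays, both with PBS, and its change of -0.57 ± 0.29 in NC siRNA cells was not called (adjusted p = 0.738). APC, the scaffold of the β-catenin destruction complex, was likewise detected only on the 2 NC siRNA arrays with PBS (5.71 and 5.74) and changed by -0.36 ± 0.24 in these cells (adjusted p = 0.876). Of 8 further WNT antagonists that are no members, KREMEN2 alone was expressed, and of 12 WNT target genes on the array 8 were expressed. Neither list had a call in any 5-Aza-CdR comparison.

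The stool and blood test markers held 2 of the 5 raised members, NDRG4 and TFPI2. SEPTIN9, a septin cytoskeleton gene measured in plasma tests, read 13.84 and 13.66 in SRCAP siRNA cells with the drug, 13.95 and 13.66 with PBS, 13.81 and 13.50 in NC siRNA cells with the drug and 13.85 and 13.61 with PBS and changed by -0.08 ± 0.23 in NC siRNA cells. BMP3, a growth factor of the TGF-β family, read 5.06 to 6.13, was detected on 5 arrays and changed by 0.02 ± 0.33, and its second probe (ILMN_1873009) was detected on none. SDC2, a cell surface proteoglycan, was detected on 1 array only (NC siRNA with PBS, 5.70) and was not tested, and TMEFF2, a transmembrane protein with follistatin domains, was detected on none. Of the CIMP panel, the calcium channel gene CACNA1G, the neurogenic factor NEUROG1 and the Runt domain factor RUNX3 were detected on no array. SOCS1, an inhibitor of cytokine signalling, was borderline at 5.12 to 5.80 and changed by 0.25 ± 0.27 (adjusted p = 0.968).

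The remaining classes had no raised member. Of 6 transcription regulators, GATA5, ALX4, ID4, EYA4 and ESR1, the estrogen receptor, were detected on no array. GATA4, an endodermal zinc finger factor, was the expressed one, at 7.32 and 6.95 in SRCAP siRNA cells with the drug, 7.46 and 7.18 with PBS, 7.27 and 6.68 in NC siRNA cells with the drug and 7.33 and 7.31 with PBS. Of the adhesion, matrix and guidance genes, TIMP3, an inhibitor of metalloproteinases, the matrix proteins THBS1 and FBN2 and the integrin subunit ITGA4 were detected on no array. UNC5C, a netrin receptor, was detected on 3 arrays and changed by -0.04 ± 0.26 in NC siRNA cells.

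Among secreted factors, receptors, transport and enzymes, IGFBP3 and IGFBP7, which bind insulin-like growth factors, and the peptide hormone genes SST and TAC1 were detected on no array. THBD, the thrombin receptor thrombomodulin, was the 1 silent member that was tested without being raised. It read 5.07 and 5.55 in SRCAP siRNA cells with the drug, 5.28 and 4.85 with PBS, 5.79 and 5.31 in NC siRNA cells with the drug and 5.06 and 5.44 with PBS. It was detected on 1 drug array of each siRNA, the groups overlapped, and its changes of 0.24 ± 0.28 in SRCAP and 0.30 ± 0.28 in NC siRNA cells were not called. SLC5A8, a sodium-coupled carrier of short-chain fatty acids, was expressed at 6.22 and 6.67 in SRCAP siRNA cells with the drug, 6.06 and 6.41 with PBS, 6.17 and 6.23 in NC siRNA cells with the drug and 6.07 and 6.43 with PBS. PTGS2, the inducible cyclooxygenase, was expressed at 8.10 and 8.41 in SRCAP siRNA cells with the drug, 8.55 and 8.24 with PBS, 8.08 and 7.46 in NC siRNA cells with the drug and 7.85 and 7.03 with PBS. For both genes the drug and PBS arrays of each siRNA overlapped and neither was called after the drug. A dimmer PTGS2 probe (ILMN_1677511) read 5.95 and 6.66 in SRCAP siRNA cells with the drug, 6.78 and 6.01 with PBS, 6.43 and 5.36 in NC siRNA cells with the drug and 5.52 and 4.92 with PBS, where it was detected on neither array. Its drug effect of -0.09 ± 0.41 in SRCAP siRNA cells and that of 0.67 ± 0.41 in NC siRNA cells were not called.

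**Figure D4:**
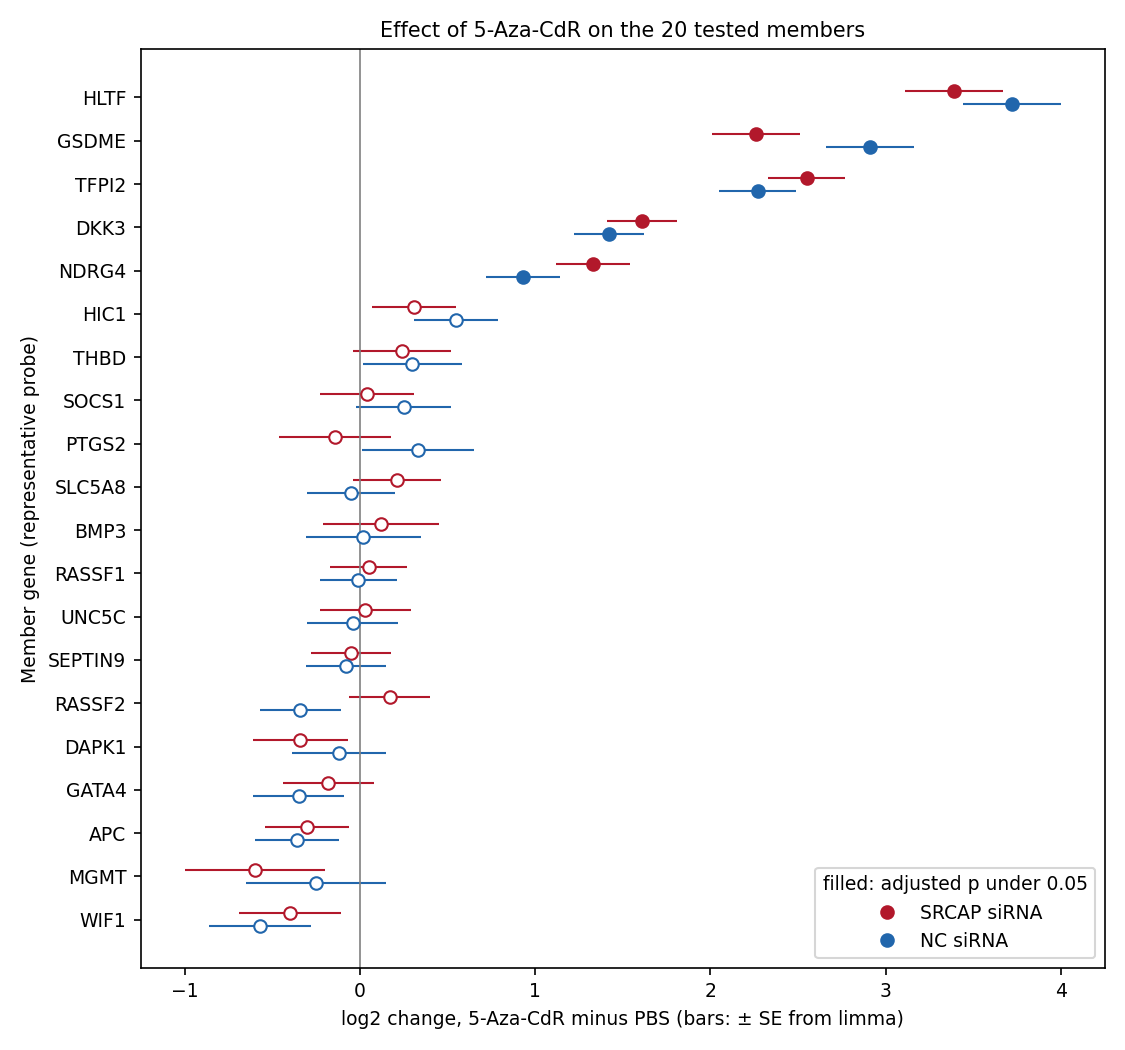
Log2 change with 5-Aza-CdR (horizontal axis, 5-Aza-CdR minus PBS, bars ± SE from limma) of the 20 tested members (down the page) in SRCAP siRNA cells (red) and in NC siRNA cells (blue), filled where the adjusted p was under 0.05. The 5 called members stand at 0.93 to 3.72, where HLTF, GSDME and TFPI2 were not detected under PBS so that their order is not measured, and the 15 others between -0.60 and 0.55.

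The 22 silent members that were not tested stayed at the level of undetected probes with the drug. No array detected them, which kept them out of the test, so this level follows from how they were set apart. Their 30 probes had a median of 4.59 over the 5-Aza-CdR arrays and 4.62 over the PBS arrays. The highest single reading, 5.51, was of TIMP3. When all probes were fitted with no filter, the 38 untested probes of members changed by -0.31 to 0.43 in SRCAP siRNA cells and by -0.70 to 0.28 in NC siRNA cells, and 0 were called in any 5-Aza-CdR comparison. On these arrays a level below the detection limit cannot be told from none, so an increase that stayed below it was not detectable.

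With SRCAP siRNA, only NDRG4 was called among the members in the fit without the slide as a block. The arrays given above show it lower in SRCAP siRNA cells with either treatment, with no overlap. The change was -1.39 ± 0.21 under 5-Aza-CdR (adjusted p = 0.0330) and -1.59 ± 0.15 on average over both treatments (adjusted p = 0.00655). Thus 1 of 20 members was called under the drug and 1 on average, where 0.343% and 1.25% of tested genes were called in either direction. Under PBS its change was -1.78 ± 0.21 and missed the threshold (adjusted p = 0.0508), and 0 members were called where 0.0171% of genes were. At an unadjusted p under 0.05, 2 of 20 members passed under PBS (NDRG4 and PTGS2), 3 under 5-Aza-CdR (GSDME, MGMT and NDRG4) and 4 on average (these 3 and PTGS2), where 7.16%, 13.6% and 19.2% of tested genes did, so that these shares were close to those of all genes. With the slide as a block NDRG4 was called under PBS too (adjusted p = 0.00668), and it stayed called under 5-Aza-CdR (0.00396) and on average (0.000266). The call under 5-Aza-CdR was lost without NC siRNA with 5-Aza-CdR replicate 2 and without any 1 of the 4 SRCAP siRNA arrays (-1.52 to -1.26, adjusted p between 0.0776 and 0.479). The average call was lost without SRCAP siRNA with PBS replicate 1 (adjusted p = 0.0557) and without either SRCAP siRNA array with 5-Aza-CdR (0.0954 and 0.114).

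MGMT and PTGS2 were called on average with the slide block and without NC siRNA with PBS replicate 1, and not in the fit of all arrays without the block. MGMT was lower by -0.75 on average over both treatments in SRCAP siRNA cells (adjusted p = 0.206, and 0.0210 with the block). PTGS2 was higher by 0.72 (adjusted p = 0.160, and 0.0309 with the block), and its PBS arrays read 8.55 and 8.24 in SRCAP siRNA cells, against 7.85 and 7.03 in NC siRNA cells. The dimmer PTGS2 probe was higher by 1.18 ± 0.41 under PBS in SRCAP siRNA cells, with a 95% interval of 0.25 to 2.10, and was not called. GSDME was lower by -0.72 ± 0.25 under 5-Aza-CdR, which was not called (adjusted p = 0.291).

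**Figure D5:**
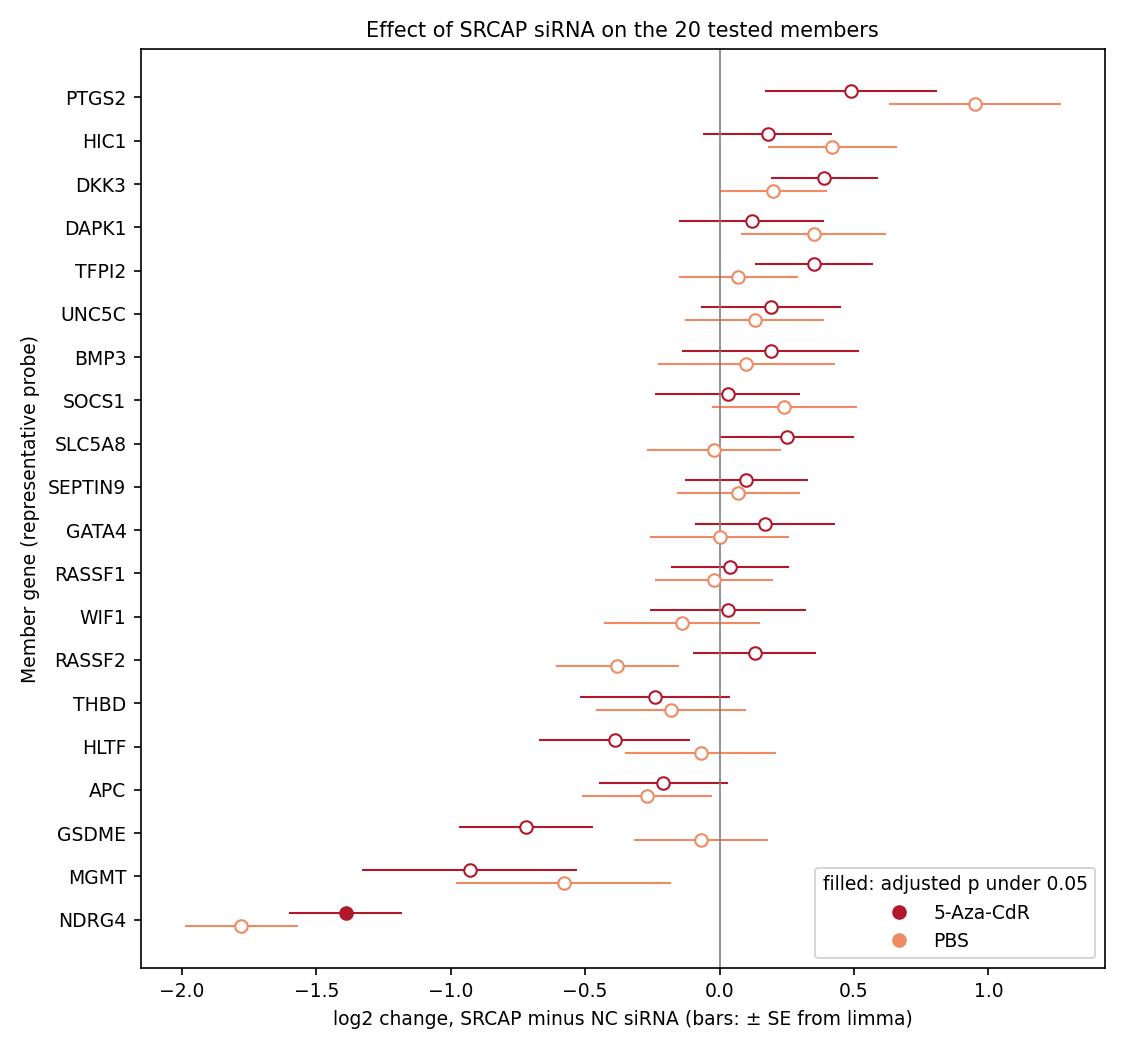
Log2 change with SRCAP siRNA (horizontal axis, SRCAP minus NC siRNA, bars ± SE from limma) of the 20 tested members (down the page) under 5-Aza-CdR (dark red) and under PBS (orange), filled where the adjusted p was under 0.05. NDRG4 stands apart at -1.39 and -1.78, and the 19 others lie between -0.93 and 0.95.

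No member had a called interaction between drug and siRNA. By representative probe, the 20 estimates ran from -0.65 for GSDME to 0.51 for RASSF2, with 12 of them above 0. The second RASSF2 probe (ILMN_2352303) went the other way, at -0.92 ± 0.29. Of the raised members HLTF (-0.33 ± 0.40) and GSDME were below 0, while TFPI2 (0.28 ± 0.31), DKK3 (0.19 ± 0.29) and NDRG4 (0.40 ± 0.30) were above it. For HLTF, GSDME and TFPI2 the PBS readings were below detection, so that a difference between their drug effects is not measured exactly. In limma 0 of the 20 members and 0% of 11670 genes were called. At an unadjusted p under 0.05 there were 0 members by representative probe and 2.21% of genes, while the second RASSF2 probe had 0.00964. These intervals are wide: that of HLTF ran from -1.21 to 0.56 and that of NDRG4 from -0.26 to 1.06, so effects of the knockdown on the drug response of this size were not measured precisely enough to be told from none.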

How the data were processed

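Total RNA of 8 RKO samples was hybridised to Illumina HumanWG-6 v3 arrays. The authors deposited intensity values, 1 mean over beads for each probe and array, made with BeadStudio 3.0.1 per the submitters' processing notes, neither background-corrected nor normalized. The deposited detection p-values compare each signal with the negative control beads of its array. The authors also gave log2 values after robust spline normalization (lumi, version not given in the sources used here). Its column medians were 7.44 to 7.45, and against log2 signal its slope was 0.475 to 0.61 for signals below 150 and 0.975 to 1.07 above 2000, so that low signals are compressed in it. It served as an alternative.

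Of 48805 lines with a probe ID, 2 IDs found on several lines were left out. Signals were background-corrected from the detection p-values (normexp, offset 16), normalized by quantiles and log2 transformed with neqc (limma 3.58.1, R 4.3.3). Probes with detection p under 0.01 on at least 2 arrays were tested. GEO's platform annotation gave 1 symbol for 27576 probes, several for 13 and none for 21212, and 27539 were updated through a RefSeq gene table.

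A model with 1 mean per group was fitted to all arrays (limma, 4 residual and 5.83 prior degrees of freedom), with 7 two-sided contrasts and Benjamini-Hochberg adjustment within each over all tested probes. The step was tested on simulated data with independent noise on each array and the same drug effect in both siRNAs. That simulation held no slide effect and no detection limit, so it does not test how the step handles these. Replicate 1 of every group was on 1 slide and replicate 2 on another, as the array labels show, so the slide pairs the samples. Deviations of samples of the same slide correlated at 0.00347 to 0.711 and the slide as a block was an alternative.

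All members are named. Those called, those silent under PBS but detected after the drug and those expressed have their array values given. The members, gene lists and alternatives were chosen with earlier results of these data known, so a share called among the members is not independent evidence. The sequences are the RefSeq windows of the raised silent members and of 2 undetected members.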

Additional observations from a re-analysis of the deposited data

How the results depend on the processing

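Among 836 values of members under the alternatives, none of the called changes turned its direction, and of 330 values that belong to called changes 282 stayed past the threshold and 48 did not. The direction of changes that were not called was not compared. HLTF, TFPI2 and DKK3, by their representative probes, were raised in both siRNAs under every alternative that could measure them, with changes in NC siRNA cells of 1.58 to 3.94, 0.62 to 2.39 and 0.47 to 1.48, the smallest in the authors' table, which compresses low signals. GSDME was not called in SRCAP siRNA cells in that table (0.65, adjusted p = 0.0674). Requiring detection on all 8 arrays removes every silent member by construction: it left 2 members higher in SRCAP siRNA cells, 1 in NC siRNA cells and 2 on average, 0 silent members raised, and 1 member changed by SRCAP siRNA under PBS and 0 under 5-Aza-CdR. Detection p under 0.05 also gave 1 member changed by SRCAP siRNA under PBS, and lost NDRG4 in NC siRNA cells (0.93, adjusted p = 0.0511). Under 5-Aza-CdR, 0 members were changed by SRCAP siRNA in the authors' table (NDRG4 -1.01, adjusted p = 0.102), without background correction (-1.15, 0.0611) and without a filter (-1.39, 0.0615). The cause was not tested. Counting any tested probe added RASSF2 to the raised members.

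With the replicate number (slide) as a block, 1 member (NDRG4) was changed by SRCAP siRNA under PBS and 3 (MGMT, NDRG4 and PTGS2) on average, and no other count changed. Leaving out 1 array at a time gave 4 to 5 members higher after 5-Aza-CdR in SRCAP siRNA cells, 4 to 4 in NC siRNA cells and 5 to 5 on average, 3 to 3 silent members raised, 0 to 1 members changed by SRCAP siRNA under PBS, 0 to 1 under 5-Aza-CdR and 0 to 3 on average, and 0 to 0 interactions. A group left with 1 array is assumed to vary like the others. The 2 arrays per group and the detection limit of 5.44 to 5.70 limit the precision, and 22 silent members lie below it.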

Other observations

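Of 9 genes with a probe that the study itself followed, 5 were higher after 5-Aza-CdR in both siRNAs. CTCFL, a germline paralogue of CTCF, read 9.35 and 9.41 in SRCAP siRNA cells with the drug, against 4.43 and 4.57 with PBS, and 10.31 and 9.84 in NC siRNA cells with the drug, against 4.62 and 4.50 with PBS. CDKN2A, the cell cycle inhibitor locus, read 7.43 and 7.49 in SRCAP siRNA cells with the drug, against 4.63 and 4.67 with PBS, and 7.91 and 8.36 in NC siRNA cells with the drug, against 4.54 and 4.46 with PBS. Both, like SYCP3 and EPM2AIP1, were detected on no PBS array, so that their changes have only a lower bound. For CTCFL it was at least 12.9-fold in SRCAP siRNA cells and at least 21.5-fold in NC siRNA cells, and for CDKN2A it was at least 3.40-fold in SRCAP siRNA cells and at least 5.62-fold in NC siRNA cells. CHFR, which was expressed under PBS, rose by 1.47 ± 0.23 in SRCAP siRNA cells and by 2.27 ± 0.23 in NC siRNA cells. No interaction was called for any of the 5, nor for any of the 11670 tested genes. All 5 estimates were below 0. They were -0.64 ± 0.32 for CTCFL, -0.82 ± 0.32 for CDKN2A and -0.75 ± 0.39 for SYCP3. For EPM2AIP1 and CHFR they were -0.93 ± 0.31 and -0.80 ± 0.32. Their unadjusted p in limma ran from 0.015 (EPM2AIP1) to 0.086 (SYCP3). The missing calls therefore do not show that SRCAP had no part. The paper reports weaker reactivation of these genes by RT-PCR after SRCAP knockdown. From these same arrays it also reports weaker reactivation of the demethylated and reactivated genes as a set. It describes EPM2AIP1 as turning from raised to unresponsive with the knockdown. In the fit used here EPM2AIP1 was still higher after the drug in SRCAP siRNA cells (2.14 ± 0.22, adjusted p = 0.000366 in limma, at least 2.09-fold). The 5 genes were chosen by the study, so their direction is not independent evidence.

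The 8 expressed WNT target genes had no call after the drug in either siRNA. AXIN2, a feedback inhibitor of the pathway, read 8.22 and 8.70 in SRCAP siRNA cells with the drug, against 7.83 and 8.09 with PBS, and 8.89 and 8.98 in NC siRNA cells with the drug, against 8.38 and 8.29 with PBS. Its change of 0.60 ± 0.23 in NC siRNA cells was not called (adjusted p = 0.491), nor was that of MYC (-0.19 ± 0.20, adjusted p = 0.968).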
